A study of Mus musculus with 8 samples.

Results

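The surface marker genes that define or divide stem and progenitor gates of mouse bone marrow were examined in multipotent progenitors (MPPs), the cells just below the haematopoietic stem cell. The 10 genes were Ly6a, Ly6e, Cd48, Slamf1, Cd34, Cd244a (also written Cd244), Cd9, Cd44, Cd93 and Eng. They were taken by name from the 37980 genes of the deposited table, and all 10 were present. The rule uses names and no measured value, but the genes were proposed with earlier results of these data known. The comparison was between MPPs carrying the NUP98-HOXA10hd fusion (NA) and wild-type (WT) MPPs, with 4 RNA-seq libraries in each group, and it addressed how NA altered the transcriptome of MPPs. NA MPPs came from NA LSL/+; Vav-Cre mice, in which Cre expressed from the Vav promoter, active across blood cells, removes a stop cassette ahead of the fusion, and WT MPPs came from mice without it. Both groups are labelled C57BL/6, and the age was not given in the sources used here. Both groups passed the same sort, Lin-CD48-c-kit+Sca1+CD135+CD150-, and each library was made from amplified cDNA of 1000 sorted cells. The labels do not say whether the 4 libraries of a group came from separate mice, so the p-values measure the spread between libraries, which may be technical.

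These genes are the vocabulary of cell sorting in blood. Ly6a encodes Sca1, a small GPI-anchored protein carried by stem cells and multipotent progenitors and lost on myeloid progenitors, and Ly6e encodes a relative of it. CD150 (Slamf1), CD48 and CD244 (Cd244a) are receptors of the SLAM family: CD150 marks stem cells, CD48 appears as cells leave the most primitive stages, and CD48 is the ligand of CD244. CD34 is a sialomucin, CD44 is the main hyaluronan receptor, CD93 is a C-type lectin-like protein, CD9 is a tetraspanin and endoglin (Eng) is a co-receptor for ligands of the TGF-beta family. Of the 10 proteins, 3 were themselves part of the sort: Sca1 was required, and CD48 and CD150 were required to be absent. The transcript levels of Ly6a, Cd48 and Slamf1 are therefore those of cells already selected on the protein. In bulk libraries, fewer cells with a transcript and less transcript per cell cannot be told apart.

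On the mm10 build the 3 SLAM genes lie in 1 cluster on chromosome 1, on the plus strand, within 242.0 kb: Cd244a at chr1:171559193-171609746, Cd48 at chr1:171682009-171705258 after a gap of 72.3 kb, and Slamf1 at chr1:171767127-171801184 after a further 61.9 kb. Ly6e at chr15:74955051-74959905 and Ly6a at chr15:74994877-74998031 are neighbours on opposite strands of chromosome 15, separated by 35.0 kb. On chromosome 2 are 3 members, Eng at chr2:32646595-32682669 on the plus strand, Cd44 at chr2:102811141-102901665 and Cd93 at chr2:148436640-148443563 on the minus strand. Cd34 is at chr1:194938819-194961279 on the plus strand and Cd9 at chr6:125460266-125494791 on the minus strand. The values are summed over the exons of each gene, so UTR and coding reads are not separated.

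The 250 bases just upstream of the start are given here for the members that differed most between NA and WT MPPs and that had an entry in RefSeq (build GRCm38.p6), together with Eng, so that the ligand Cd48 can be read beside its receptor Cd244a and Eng, which fell, beside Cd9, which rose. Of the 10 members, 7 had an entry. The start is that of RefSeq and need not match the gene coordinates given above. The Cd9 window reaches into those coordinates, and the Cd48 window ends short of them. Each sequence runs 5′ to 3′ in the direction of its gene, Cd48 from chr1:171681742-171681991 (plus strand), Cd244a from chr1:171558943-171559192 (plus), Eng from chr2:32646345-32646594 (plus) and Cd9 from chr6:125494761-125495010 (minus). Capitals mark a motif found on either strand.
Cd48: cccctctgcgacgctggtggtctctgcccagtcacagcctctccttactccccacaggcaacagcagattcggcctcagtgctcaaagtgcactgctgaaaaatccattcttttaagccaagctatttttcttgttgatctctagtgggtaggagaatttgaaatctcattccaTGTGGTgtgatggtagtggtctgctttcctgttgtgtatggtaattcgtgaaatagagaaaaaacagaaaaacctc
Cd244a: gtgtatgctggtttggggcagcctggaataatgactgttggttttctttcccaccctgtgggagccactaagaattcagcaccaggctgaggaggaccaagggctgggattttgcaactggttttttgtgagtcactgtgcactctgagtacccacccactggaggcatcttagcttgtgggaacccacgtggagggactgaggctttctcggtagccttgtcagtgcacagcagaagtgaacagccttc
Eng: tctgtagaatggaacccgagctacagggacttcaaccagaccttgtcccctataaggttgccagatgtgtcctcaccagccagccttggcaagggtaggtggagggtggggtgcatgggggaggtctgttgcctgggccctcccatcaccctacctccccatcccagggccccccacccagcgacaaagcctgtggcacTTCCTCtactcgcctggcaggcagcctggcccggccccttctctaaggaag
Cd9: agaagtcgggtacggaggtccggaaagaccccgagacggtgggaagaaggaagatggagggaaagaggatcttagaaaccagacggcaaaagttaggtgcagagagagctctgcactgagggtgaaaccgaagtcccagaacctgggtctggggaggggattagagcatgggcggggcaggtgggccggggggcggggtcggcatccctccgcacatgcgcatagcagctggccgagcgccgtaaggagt

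Short motifs of 4 kinds of factor were searched on both strands. The PU.1 core was GAGGAA. The RUNX core was TGTGGT. The GATA core was AGATAA. The core of posterior HOX sites was TTTATG. No motif contains another. The Cd48 window held 1 RUNX core, whose first letter is 76 bases before the start, and the Eng window held 1 PU.1 core as its reverse complement, 51 bases before the start. The windows of Cd244a, Cd34 and Cd9 held none of the 4 motifs, Slamf1 held 1 HOX core 107 bases before its start, and Cd44 held PU.1 cores 243 and 220 bases and a GATA core 233 bases before its start. Among 32851 promoter windows of the same length the PU.1 core occurred in 23.3%, the RUNX core in 14%, the HOX core in 10.8% and the GATA core in 9.99%, and a match describes letters only. The share of G or C was 61.6% in the Cd9 window and 62.4% in the Eng window, 53.2% in that of Cd244a and 46.0% in that of Cd48. The Cd9 window held 16 CpG, those of Eng and Cd48 held 4 each and that of Cd244a held 2.

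The deposited values are normalised counts, and the depth behind them, recovered from their steps, was 3876903 to 4916971 estimated reads a library. Some properties of the libraries bear on every result. The fourth library of each group lay closer to a weighted sum of the other 3 libraries of its group than any other library did. The median squared residual over the fitted value was 1.58 for NA4, against 2.97 to 6.02 for NA1 to NA3. It was 1.01 for WT4, against 2.04 to 3.5 for WT1 to WT3. Counting error of the fitted library alone gives 0.455, a value that leaves out the counting error of the libraries in the sum. Whether NA4 and WT4 are independent of the other libraries of their group was not tested. If they are not, the SDs, SEs and adjusted p-values from all libraries could be too small. The intervals could then be too narrow and the numbers of calls too high. Counts are therefore also given without NA4 and WT4. The groups also differed in sex-linked transcripts, with Xist at 869 to 1290 normalised counts in the WT libraries and at most 2.80 in the NA libraries and Eif2s3y at 516 to 666 in the NA libraries and at most 0.888 in the WT libraries, so that the genotype and the sex of the mice cannot be told apart. Finally, 3 NA and 2 WT libraries were deep (4779631 to 4916971 reads) and 1 NA and 2 WT libraries shallow (3876903 to 3960931 reads).

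All 10 members passed the filter on low values (at least 10 normalised counts in at least 4 libraries). Of the 10, 5 (50%) differed between NA and WT MPPs at an adjusted p below 0.05 (limma, Benjamini-Hochberg over 11451 genes), where 17.9% of all tested genes did. Cd9 was the 1 member that rose, against a background of 10.1% called higher, and Ly6a, Ly6e, Cd48 and Eng were the 4 that fell, against 7.87% called lower. For 6 members (60%), these 5 and Cd244a, the NA and WT ranges were separate, which held for 22.0% of all tested genes. The median log2 fold change over the members was -0.35, and over all tested genes it was -0.01. With NA4 and WT4 left out, 2 of the 10 members (20%) were called, Ly6e and Cd9, against 4.52% of all genes. Under total-count scaling 6 members were called, Cd244a being added, where 2239 of all 11496 tested genes were called. The share of higher genes among all calls went from 56.1% to 41.3%.

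**Figure D1:**
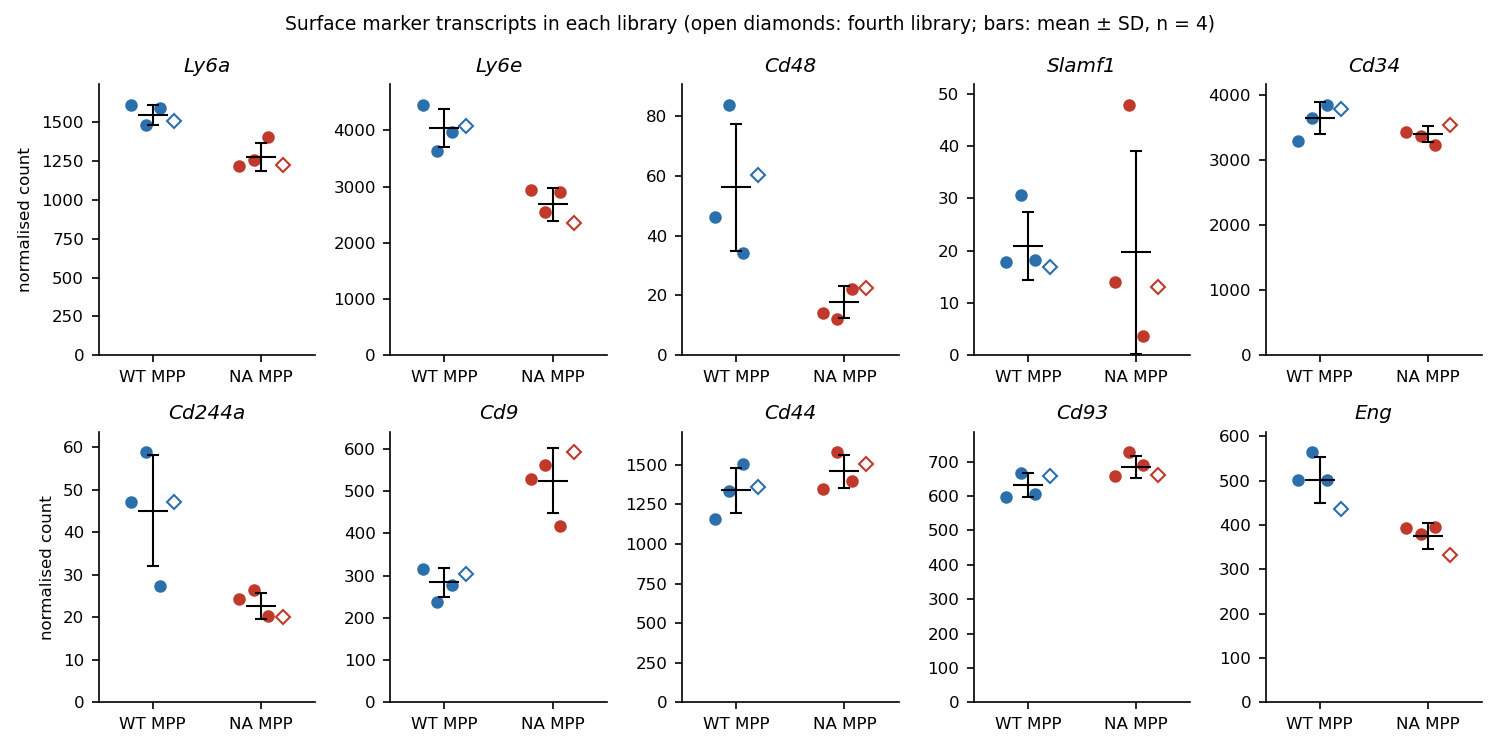
Normalised count (vertical axis, starting at 0) of each of the 10 surface marker genes in the 4 WT MPP (blue) and 4 NA MPP (red) libraries, with open diamonds for the fourth library of each group and black bars for mean ± SD. The groups are separate for Ly6a, Ly6e, Cd48, Cd244a, Cd9 and Eng, and the NA2 value of Slamf1 (47.9) stands above all others of that gene.

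The tetraspanin Cd9 was the 1 member higher in NA MPPs. Its normalised count was 528, 561, 417 and 593 in NA libraries 1 to 4 and 316, 238, 279 and 305 in WT libraries 1 to 4. Every NA library was above every WT library, and the nearest pair was NA3 and WT1. The means were 524.9 ± 76.4 in NA and 284.3 ± 34.7 in WT (SD, n = 4 each), a ratio of 1.85 and a log2 fold change of 0.88 (SE 0.13, 95% interval 0.59 to 1.16, limma adjusted p = 0.000554). The log2 difference was 0.68 within the deep libraries and 1.2 within the shallow ones, where 1 NA library stood against 2. CD9 organises membrane microdomains with integrins and is used to mark stem cells and platelet-forming cells. Summed megakaryocyte markers ranged from 225.6 to 318.3 in NA and from 220.9 to 294.7 in WT, with none of 5 tested called. Of the 50-base stretches of Cd9 exons, 5.67% also occur in another gene. Exons of Cd9 overlap exons of Gm26728 on the other strand, which has no deposited value, and the libraries do not mark strand.

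Of the 18 tetraspanins tested, 4 were called higher and 2 lower, and 12 were not called. Over all tested genes 10.1% were called higher and 7.87% lower. After Cd9, the higher ones were Cd53, a leukocyte tetraspanin (834.9 against 586.1, log2 fold change 0.51, adjusted p = 0.00338), Cd81, a close relative of CD9 (2118 against 1545, 0.46, adjusted p = 0.00523), and Tspan13 (2054 against 1668, 0.30, adjusted p = 0.0267). The lower ones were Tspan32 (1500 against 2038, -0.44, adjusted p = 0.00434) and Cd63, found mainly in late endosomes (694.5 against 911.0, -0.39, adjusted p = 0.00701). The tetraspanins thus moved in both directions. Of the 18, Cd9 alone was called when NA4 and WT4 were left out, where 4.52% of all genes were called.

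Both tested neighbours of the Ly6 family fell. Ly6e gave 2933, 2544, 2903 and 2343 normalised counts in NA1 to NA4 and 4458, 3636, 3967 and 4072 in WT1 to WT4. No NA library reached the lowest WT library, WT2. The means were 2681 ± 286 and 4033 ± 339 (SD, n = 4 each), a ratio of 0.665 and a log2 fold change of -0.59 (SE 0.09, 95% interval -0.78 to -0.40, limma adjusted p = 0.000575). The difference was -0.61 within the deep and -0.70 within the shallow libraries, and it was still called without NA4 and WT4 (-0.52, adjusted p = 0.0105).

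Ly6a, the transcript of the Sca1 antigen on which the cells were sorted, also fell. It gave 1221, 1256, 1408 and 1225 normalised counts in NA1 to NA4 and 1614, 1482, 1589 and 1508 in WT1 to WT4. The groups did not overlap, but the highest NA library (NA3) came close to the lowest WT library (WT2). The means were 1277 ± 88.5 and 1548 ± 63.3 (SD, n = 4 each), a ratio of 0.825, and the log2 fold change was -0.28 (SE 0.08, 95% interval -0.45 to -0.11, limma adjusted p = 0.0257). The call did not survive dropping a single library from among NA1 (adjusted p = 0.051), NA2 (0.0603), NA4 (0.0739), WT1 (0.0691), WT3 (0.0565) and WT4 (0.0649), nor dropping NA4 and WT4 together (0.164). Of the 50-base stretches of Ly6a exons 18.97% are shared with Ly6c1, Ly6i or I830127L07Rik, so reads from these stretches may have been split between genes.

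Of the 6 Ly6 family genes tested, 3 were called lower and none higher, beside 7.87% lower and 10.1% higher over all tested genes. The third was Ly6c1, the antigen used to mark monocytes and other myeloid and lymphoid cells. It was at 11.62 ± 4.04 in NA and 36.33 ± 9.76 in WT (log2 fold change -1.58, limma adjusted p = 0.0112). Ly6c1 shares 50-base stretches with the far more abundant Ly6a, and the part of these in its values was not tested. Lynx1, Cd59a and Plaur were not called, and 7 of the 17 family genes in the table were at 0 in every library, including Ly6g, the granulocyte antigen. Without NA4 and WT4, 1 of the family was called, Ly6e, where 4.52% of all genes were. The other sort antigens that had to be present were not called: Kit was at 1362 ± 111 in NA and 1197 ± 107 in WT (adjusted p = 0.169) and Flt3, which encodes CD135, at 1442 ± 45.4 and 1374 ± 68.0 (adjusted p = 0.554; SD, n = 4 each).

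**Figure D2:**
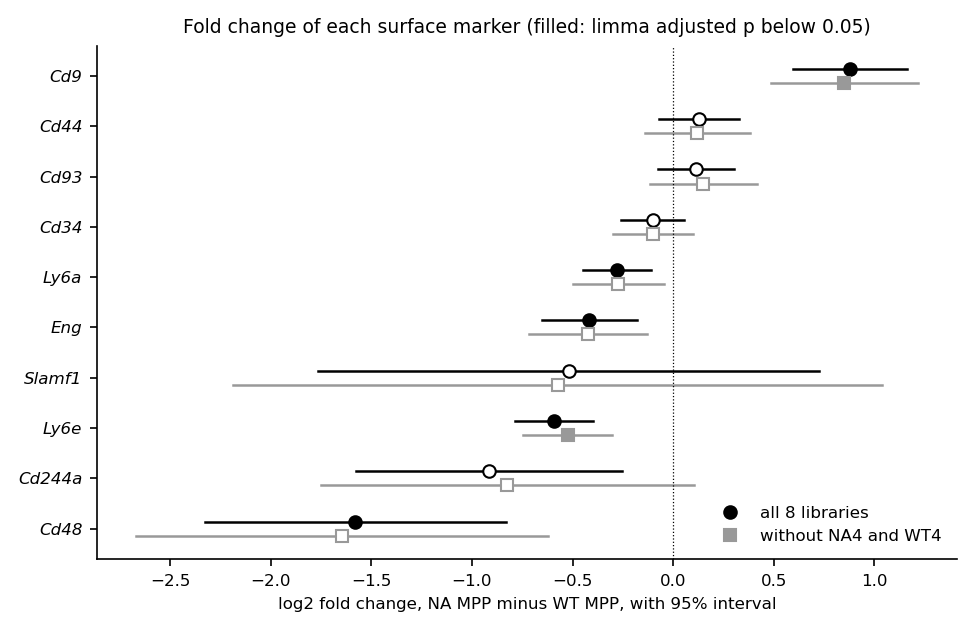
Log2 fold change of each member, NA MPP minus WT MPP (horizontal axis), with its 95% interval, from all 8 libraries (black circles) and without NA4 and WT4 (grey squares), filled where the limma adjusted p was below 0.05. Cd9 lies to the right of 0 at 0.88 and Cd48 farthest to the left at -1.58, and the grey points keep the side of the black ones while the squares of Cd9 and Ly6e alone are filled.

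Cd48, the SLAM gene whose protein the sort gated out, had the largest fold difference of the 10 members. Its normalised count was 14, 12.2, 22.2 and 22.4 in NA1 to NA4 and 46.2, 83.8, 34.2 and 60.4 in WT1 to WT4. All NA libraries were below all WT libraries, and the WT libraries were spread widely, from WT3 at the bottom to WT2 at the top. The means were 17.71 ± 5.36 and 56.12 ± 21.3 (SD, n = 4 each), a ratio of 0.315 and a log2 fold change of -1.58 (SE 0.35, 95% interval -2.33 to -0.83, limma adjusted p = 0.00711). These values rest on few reads, 13 to 24 estimated reads in an NA library and 30 to 74 in a WT library, so that NA2 (13 reads) has a 95% Poisson interval of 6.92 to 22.2 and WT3 (30 reads) one of 20.2 to 42.8, covering counting error only. The log2 difference was -1.69 within the deep and -1.22 within the shallow libraries. It was -1.65 without NA4 and WT4, at an adjusted p of 0.0676.

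Cd244a, the receptor for CD48, gave 24.3, 26.3, 20.3 and 20.1 normalised counts in NA1 to NA4 and 47.1, 58.9, 27.3 and 47.1 in WT1 to WT4. The groups did not overlap, although WT3 and NA2 lay close together. The means were 22.75 ± 3.06 and 45.08 ± 13.1 (SD, n = 4 each), a ratio of 0.505 and a log2 fold change of -0.91 (SE 0.31, 95% interval -1.58 to -0.25), just short of a call (limma adjusted p = 0.0545). The adjusted p ranged from 0.0212, without WT3, to 0.311, without NA4 and WT4. The log2 difference was -0.97 within the deep and -0.97 within the shallow libraries, from 17 to 28 estimated reads in an NA library and 24 to 53 in a WT library.

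Slamf1, the third gene of the cluster, was variable in NA MPPs. Its normalised count was 14, 47.9, 3.69 and 13.0 in NA1 to NA4 and 17.8, 30.6, 18.2 and 16.9 in WT1 to WT4. The highest and the lowest of the 8 values were both NA libraries, so the WT range lay inside the NA range. Behind them were 51 estimated reads in NA2 (95% Poisson interval 38.0 to 67.1) and 4 in NA3 (1.09 to 10.2), whose intervals do not meet. The means were 19.66 ± 19.4 and 20.85 ± 6.51 (SD, n = 4 each), and the log2 fold change was -0.52 (95% interval -1.76 to 0.73, limma adjusted p = 0.570). The sign rested on 1 library, since without NA3 the log2 fold change was 0.03. This interval still includes a difference as large as that of Cd244a.

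Over the SLAM family 1 of 6 tested genes was called, Cd48, where 17.9% of all tested genes were called. Cd84 was the most abundant by normalised count, at 578.4 ± 41.8 in NA and 536.7 ± 46.7 in WT (log2 fold change 0.11, adjusted p = 0.485), while Ly9 (-1.02, adjusted p = 0.345) and Slamf8 (0.62, adjusted p = 0.579) were low and not called. Slamf9 and Sh2d1a, which encodes the adaptor SAP, were at 0 in every library.

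Beside Cd48 and Cd244a, the summed markers of erythroid cells, monocytes and macrophages, and granulocytes were also lower in every NA library than in every WT library. Over the 8 erythroid markers the summed normalised count ranged from 34.25 to 64.86 in NA and from 146.9 to 295.6 in WT, most of it from the globin gene Hbb-bt (41.16 against 162.9, log2 fold change -1.99, adjusted p = 6.79e-05, and 0.00282 without NA4 and WT4). Over the 8 monocyte and macrophage markers it ranged from 48.01 to 91.48 in NA and from 119.5 to 147.4 in WT, with none of 4 tested called. Over the 8 granulocyte markers it ranged from 1390 to 1709 in NA and from 1750 to 2629 in WT, mostly from Prtn3 (1523 against 2028, log2 fold change -0.41, adjusted p = 0.0181), which early myeloid progenitors also use, and Mpo was lower too (13.24 against 36.96, -1.5, adjusted p = 0.0422). The neutrophil genes S100a8, S100a9, Camp, Ngp and Ltf summed to 317 in WT3 and 95 in WT4. In the other libraries they summed to 11.3 to 29.5. WT4 lay closer to a weighted sum of the rest of its group than any other WT library did. Its value may therefore not be separate from that of WT3, which was not tested. The summed markers of T cells (3.54 to 25.85 in NA, 10.19 to 30.74 in WT), B cells (100.6 to 239.0 and 182.2 to 269.0) and endothelial cells (583.5 to 637.1 and 505.1 to 671.7, Cdh5 at 0 in all) overlapped between groups, and those of NK cells were at 147.6 to 160.6 in NA and 119.9 to 147.2 in WT with none of 2 tested called. The part of these cells in the Cd48 and Cd244a values was not tested. In the lineage cocktail of the sort, Cd2, Cd3e, Cd8a and Ly6g were at 0 in every library, and Cd4, Itgam and Ptprc were not called.

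**Figure D3:**
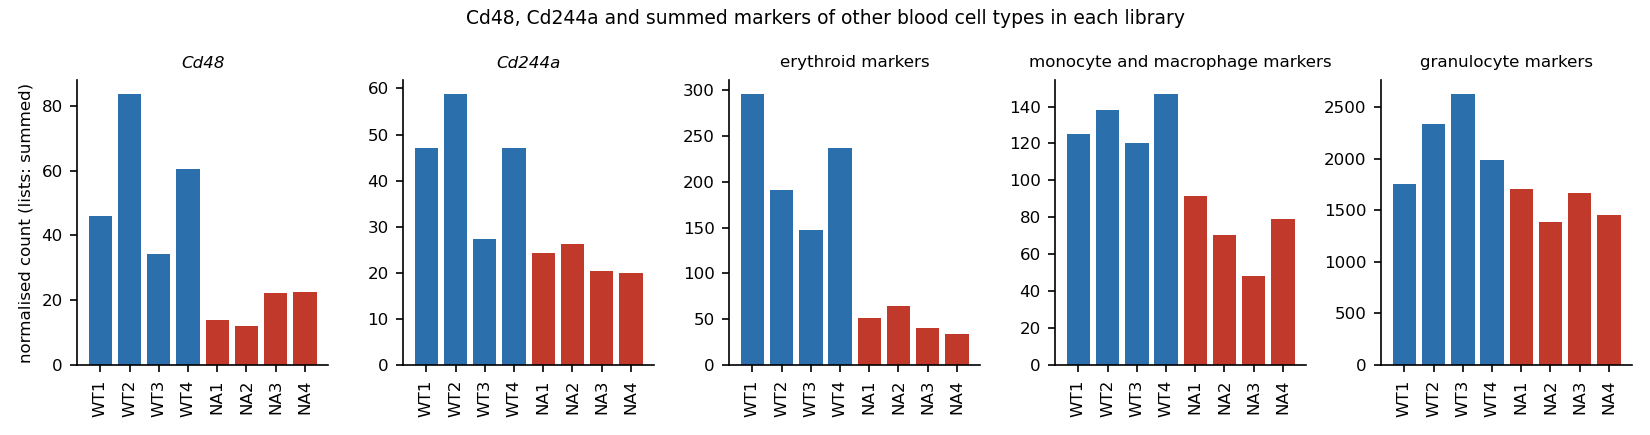
Normalised count of Cd48 and Cd244a and summed normalised count of the erythroid, monocyte and macrophage, and granulocyte marker lists (vertical axes, from 0) in each WT (blue) and NA (red) library. In all 5 panels every NA bar is below every WT bar, by the widest margin for the erythroid markers (34.25 to 64.86 against 146.9 to 295.6).

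Endoglin fell. Eng gave 393, 379, 395 and 332 normalised counts in NA1 to NA4 and 503, 565, 501 and 437 in WT1 to WT4. The groups were separated by the gap between NA3 and WT4, and the fourth library was the lowest of each group. The means were 374.7 ± 29.5 and 501.3 ± 52.4 (SD, n = 4 each), a ratio of 0.747, and the log2 fold change was -0.42 (SE 0.11, 95% interval -0.65 to -0.18, limma adjusted p = 0.0185). The log2 difference was -0.27 within the deep libraries and -0.68 within the shallow ones. The call was lost without NA4 (adjusted p = 0.0707), without WT2 (0.0506), without NA4 and WT4 (0.0938) and after a GC trend was removed from each library (-0.28, adjusted p = 0.0611). Exons of Eng overlap exons of Fpgs on the other strand, the Nextera XT libraries do not mark strand, and no strand setting was stated. Fpgs was at 115 to 197 in NA and 115 to 145 in WT.

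Endoglin acts with TGF-beta and BMP receptors, of which 6 genes, Eng included, were tested. Over all tested genes 10.1% were called higher and 7.87% lower. Tgfbr1, the type I TGF-beta receptor, was the 1 called higher, at 309.2 ± 53.3 in NA and 201.3 ± 28.0 in WT (log2 fold change 0.61, adjusted p = 0.0143), and Eng was the 1 called lower. Tgfbr2 (0.18, adjusted p = 0.210), Tgfbr3 (0.35, 0.174), Bmpr2 (0.11, 0.918) and Bmpr1a (-1.25, 0.141) were not called. Acvrl1, the type I receptor that endoglin assists in vessels, was below the filter at 0.53 and 1.30 on average. None of the 6 was called without NA4 and WT4, where 4.52% of all genes were.

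The abundant adhesion markers Cd34, Cd44 and Cd93 showed no call, and their groups overlapped. Cd34 ranged from 3239 to 3534 normalised counts in NA and from 3292 to 3854 in WT, with a log2 fold change of -0.10 (95% interval -0.26 to 0.05, limma adjusted p = 0.359). Its exons overlap exons of Gm16897 on the other strand, which has no deposited value. Cd44 ranged from 1349 to 1581 in NA and from 1155 to 1504 in WT (0.13, interval -0.07 to 0.33, adjusted p = 0.363). Cd93 ranged from 657.2 to 728.5 in NA and from 597.5 to 665.9 in WT (0.11, interval -0.07 to 0.30, adjusted p = 0.390). These 3 intervals include 0, but that of Cd34 did not under total-count scaling (-0.17, interval -0.32 to -0.02, adjusted p = 0.0976) or after a GC trend was removed from each library (-0.21, interval -0.36 to -0.06, adjusted p = 0.0514). Cd44 and Cd93 were smaller under the same settings, at 0.06 and 0.05 with total-count scaling and 0.04 and 0.07 with the GC trend removed. Of 10 tested genes in the list of sialomucins, CD44 ligands and CD93 relatives, none was called, where 17.9% of all tested genes were.

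Compared per kilobase of exon, with all annotated exons of a gene counted once, the order of levels was similar at the top and bottom. In WT MPPs the mean normalised count per kb was 1285 for Ly6a, 1066 for Ly6e, 500.2 for Cd34, 197.4 for Cd44, 139.1 for Cd9, 123.8 for Eng, 94.61 for Cd93, 47.20 for Cd48, 9.25 for Cd244a and 3.39 for Slamf1. In NA MPPs it was 1060 for Ly6a, 708.4 for Ly6e, 465.7 for Cd34, 256.8 for Cd9, 215.2 for Cd44, 102.4 for Cd93, 92.57 for Eng, 14.89 for Cd48, 4.67 for Cd244a and 3.19 for Slamf1. Cd9 and Cd44 changed places, and so did Cd93 and Eng. Neighbours whose libraries overlapped were Cd9 and Eng in WT, and Cd9 and Cd44 as well as Cd244a and Slamf1 in NA. On this scale the positive sort marker Ly6a stood first and the negative sort markers Cd48 and Slamf1 were among the lowest 3 in both groups. The place of Ly6a above Ly6e rests on annotated exon length, 1205 bases for Ly6a and 3784 for Ly6e. Before division by length Ly6e was the higher, at 2681 against 1277 in NA and 4033 against 1548 in WT.

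**Figure D4:**
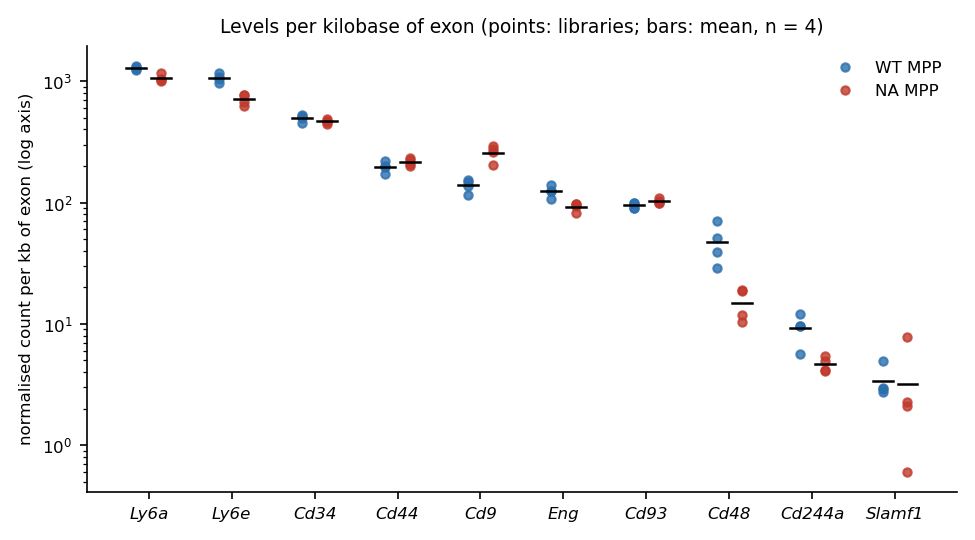
Normalised count per kilobase of exon (vertical axis, logarithmic) for the 10 members in each library of WT (blue) and NA (red) MPPs, with the mean as a black bar, ordered by the WT mean. Ly6a is highest (1285 in WT, 1060 in NA), and Cd48, Cd244a and Slamf1 are the lowest 3 in both groups.

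Other genes used to gate stem cells and committed progenitors changed in both directions beside the 10 members. Of 14 other stem cell markers tested, 4 were called higher and 2 lower, beside 10.1% higher and 7.87% lower over all tested genes. Among them were Cd47, the signal that restrains phagocytosis (2788 ± 141 against 1916 ± 140, log2 fold change 0.54, adjusted p = 0.000353), Alcam (626.4 against 448.4, 0.47, adjusted p = 0.0184) and Cd81, on the rising side, and Tek, the angiopoietin receptor TIE2 (98.13 ± 28.9 against 179.0 ± 27.2, -0.91, adjusted p = 0.0128), on the falling side. Of 12 other committed progenitor markers tested, 4 were called higher and 3 lower, beside the same 10.1% and 7.87%. Cd69, an early activation antigen (558.7 ± 185 against 195.4 ± 96.2, 1.62, adjusted p = 0.00382), Cxcr4, the receptor that retains cells in the marrow (206.5 ± 35.2 against 73.80 ± 22.4, 1.5, adjusted p = 0.000298), and Fcgr2b, part of the CD16/32 antigen (55.37 ± 22.0 against 18.95 ± 4.37, 1.42, adjusted p = 0.0146), rose, and Ly6c1 fell. When NA4 and WT4 were left out, Cd47 was called higher and Tek lower in the first list. In the second list 3 were then called higher, Cd69 and Cxcr4 among them. Over all genes 4.52% were called in that setting.

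**Figure D5:**
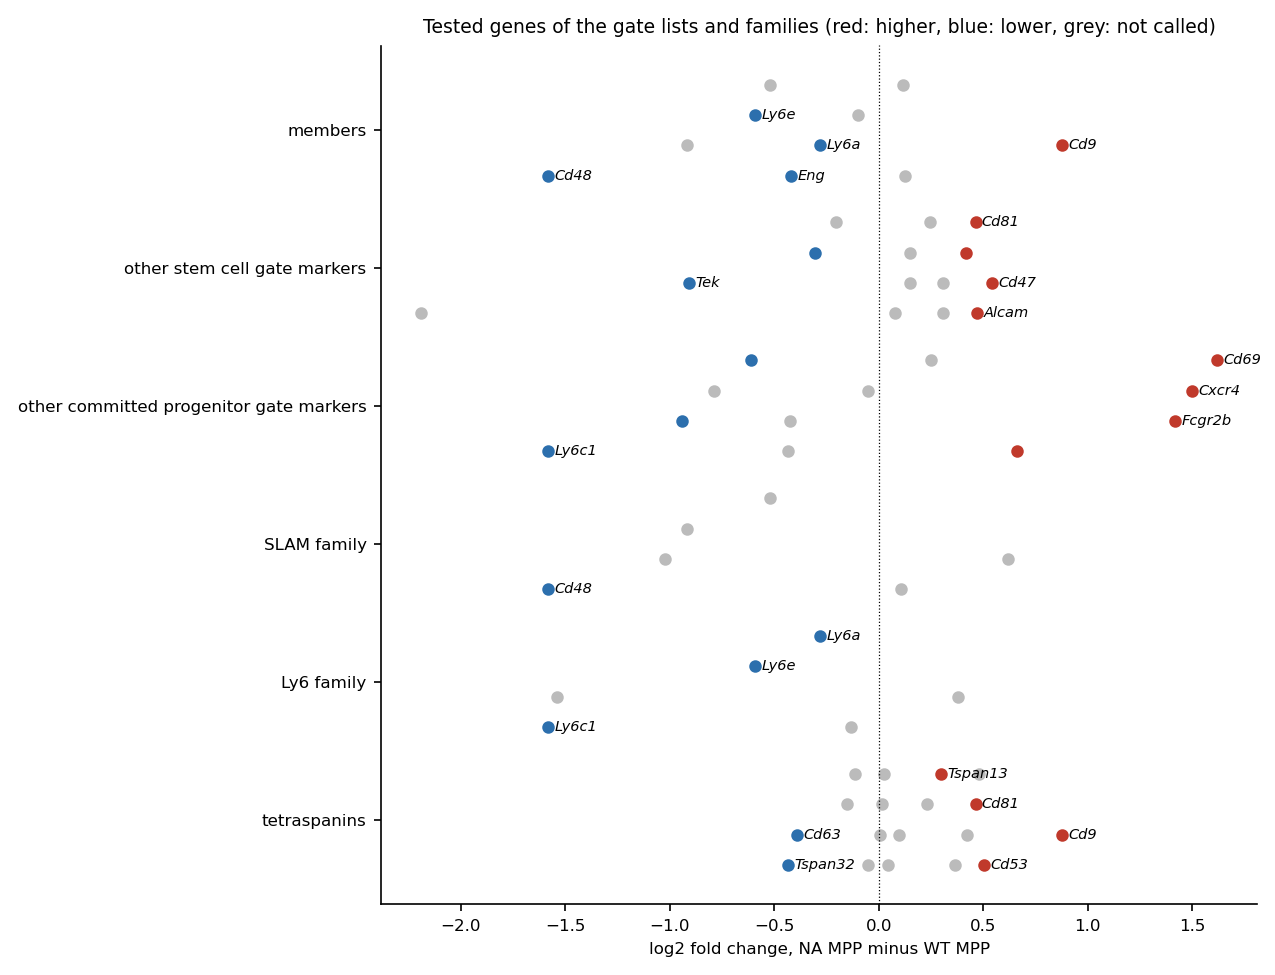
Log2 fold change, NA MPP minus WT MPP (horizontal axis), of every tested gene in the list of members, 2 lists of other gate markers and 3 families that hold members, coloured red where called higher, blue where called lower and grey where not called, with called genes named (in the 2 gate lists the 4 with the largest change). The Ly6 family holds 3 blue points and no red one, whereas the tetraspanins hold 4 red and 2 blue.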

How the data were processed

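RNA-seq was performed on 1000 sorted MPPs per library, with Nextera XT libraries sequenced on a NextSeq 500. The authors aligned and quantified reads with RSEM and normalised with DESeq2 (mm10 and these tools are named in the submitters' processing notes, versions not given in the sources used here). The deposited values form 1 table of 37980 genes and are a signal unit: estimated counts divided by 1 size factor per library, here called normalised counts. Each library's values were near whole multiples of 1 step (0.8878 to 1.181, with 98.26% to 98.82% of values above 0.5 within 0.05 of a step), which gave the estimated reads. RSEM fractions remain among them, so count models were not used. Nextera XT on amplified cDNA does not mark strand.

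Genes with at least 10 in at least 4 of the 8 libraries (11451) were tested on log2(value + 1) with limma 3.58.1 (R 4.3.3, two-sided, mean-variance trend, no covariates) and Benjamini-Hochberg adjustment at 0.05. Fold changes are on that scale, which understates changes of low genes. The procedure was tested on simulated data. Gene models were GENCODE M21 (GRCm38, the mm10 assembly), shared sequence was counted in stretches of 50 bases, and promoters came from RefSeq. All 10 members were named, with Kit and Flt3 and, from each list, up to 4 called genes by size of change plus genes sharing a family, cluster or receptor complex with a called member. The members and lists were chosen with earlier results of these data known. Alternatives changed scaling, pseudocount, filter, variance model, covariates and libraries. Intervals on reads cover counting error only. The 8 granulocyte, erythroid, monocyte and macrophage, T, B, megakaryocyte and endothelial markers and 6 NK markers were fixed lists.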

Additional observations from a re-analysis of the deposited data

Results flagged for a closer look

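In 2 of 26 groups of 4 libraries a value was set apart from the others by more than Dixon's 95% limit on the gap over the range, where chance gives about 1.3. Slamf1 in WT2 was at 30.58 normalised counts, and the other WT libraries were at 16.87 to 18.22. The estimated reads of NA4 were 3887848, and the other NA libraries had 4909407 to 4916971.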

How the results depend on the processing

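Over 20 alternatives the 10 members gave 197 values. Of these, 177 kept their direction and their side of the threshold, 14 lost the call, 5 gained one and 1 changed sign. The 177 include members that were not called with all 8 libraries and stayed so. Of the 14 lost calls, 8 were of Ly6a, 5 of Eng and 1 of Cd48. Ly6e (adjusted p = 0.000243 to 0.0185) and Cd9 (0.000266 to 0.0113) kept their calls in all 20. Leaving out 1 library at a time gave 1106 to 2141 called genes over the whole table (2053 with all 8) and 3 to 5 called members, the lowest of both without NA4, and without WT4 it gave 1294 genes. Without NA4 and WT4 519 genes and 2 members were called, from 3 libraries a group. With 1 library left out Slamf1 ran from -1.09 to 0.0338 (log2), the latter without NA3. Ly6a was not called without a mean-variance trend (adjusted p = 0.0978), nor was Eng (0.0541). Cd244a was called under total-count scaling (0.0392), a pseudocount of 5 (0.0488), no trend (0.0366), GC correction (0.0421) and without WT3 (0.0212). The causes were not tested. A mean of at least 50 removed Cd48, Slamf1 and Cd244a.

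The replicate numbers were not shown to pair the samples. Deviations of same-numbered libraries correlated at 0.0874, 0.0271, 0.0131 and 0.158, and NA2 and NA3 correlated best with another number. With the replicate number as a block 2004 genes and 5 members were called. The planned edgeR and DESeq2 alternatives were not run, since RSEM fractions remain among the recovered reads. Depth limits Cd48, Cd244a and Slamf1, which rest on 4 to 74 reads a library.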
